A study of Mus musculus with 12 samples.

Results

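Full-thickness skin of newborn mice without keratin 1 was compared with the epidermis of newborn mice that carry it, on the 3 arrays titled Krt1-/- skin and the 3 titled Krt1+/+ epidermis. These 6 of the 12 arrays of the study are the first 6 sample columns of its non-normalized table, and they were chosen by title alone. All samples came from C57BL/6 mice on postnatal day 0, each array holding total RNA labelled with biotin and hybridised in 1 colour to Illumina bead arrays. The Krt1-/- skin samples lack functional keratin 1 according to their genotype label and hold epidermis, dermis and the tissue beneath it, while the Krt1+/+ epidermis samples are wild type for the gene and labelled as epidermis alone. The other arrays, 3 of Krt1+/+ skin and 3 labelled Krt1-/- epidermis, entered the same fit and are quoted only beside the comparison. The sources used here state neither how the knockout allele was made nor whether animals were pooled.

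Keratin 1 pairs with keratin 10 to build the filament network of the suprabasal layers of the epidermis, where keratinocytes leave the basal layer and differentiate. As they move outward, these cells cross-link involucrin, loricrin, small proline-rich proteins and late cornified envelope proteins beneath the plasma membrane into the cornified envelope, the mechanical part of the skin barrier. Wounded or inflamed epidermis is known to switch to keratins 6, 16 and 17 and to release alarmins such as S100A8, S100A9 and interleukin 33. Full-thickness skin holds RNA of the dermis, muscle and fat besides that of keratinocytes. Genotype and tissue change together in this comparison, and their parts in a difference cannot be told apart from these groups, which is why the levels of Krt1+/+ skin are placed beside many of the values.

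Between 17365 and 19609 of 45281 probes were detected above background on each of the 6 arrays, and 12099 genes were tested. Replicates correlated at 0.967 to 0.972 within Krt1-/- skin and at 0.97 to 0.984 within Krt1+/+ epidermis, and 0.894 to 0.903 across the comparison. With 3 arrays a group, precision is limited throughout. Separate animals are not named for the arrays in a group, so the p-values cover the spread from array to array, and that spread may be technical. Over probes undetected on every array, Krt1-/- skin replicate 1 stood apart from the other arrays of the comparison. Its mean correlation was 0.161 with the first 6 columns and 0.135 with the last 6, against 0.194 to 0.223 and 0.057 to 0.111 for the other 5 arrays, so the main counts are also given without it. The Krt1+/+ skin and Krt1-/- epidermis arrays fill the last 6 columns. They correlated at 0.141 to 0.168 with the last 6 and at 0.0659 to 0.129 with the first 6. Every value set against or taken from those arrays therefore also differs in column set, and the part of this in the side values was not tested. Values below are normalized log2 intensities in the order of the replicate numbers, differences are Krt1-/- skin minus Krt1+/+ epidermis with their standard error, and adjusted p is that of limma with the Benjamini-Hochberg method over all genes tested. A gene was called when it was under 0.05.

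In all, 1675 genes were called higher in Krt1-/- skin (13.8% of those tested) and 1829 lower (15.1%), with a median difference over all genes of -0.07. Higher genes made up 47.8% of the calls, and 62.3% when arrays were centred on the median in place of quantile normalization. Without Krt1-/- skin replicate 1 the counts were 1500 and 1529. Differences above 2-fold were reached by 1087 of the higher genes (8.98% of those tested) and by 585 of the lower ones (4.84%). Requiring a difference of at least 1.5-fold in the test itself left 754 higher and 217 lower. In bulk samples fewer cells of a type and less RNA per cell cannot be told apart.

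Krt1 itself was read first. Its level was 7.45, 8.24 and 6.55 on the Krt1-/- skin arrays and 10.25, 11.39 and 12.44 on the Krt1+/+ epidermis arrays. The groups did not overlap, and the level was 15.4-fold lower in Krt1-/- skin (log2 -3.94 ± 0.59, adjusted p = 0.000228). No source used here places the probe inside or outside the deletion, and a signal above background remained on all 3 knockout arrays. The Krt1+/+ skin arrays averaged 12.1, so Krt1-/- skin was also lower than skin of the same kind (log2 -4.71, adjusted p = 8.12e-05). On the arrays labelled Krt1-/- epidermis the mean was 10.3, which did not pass the test against Krt1+/+ epidermis (log2 -1.08), and those arrays are therefore called by their label.

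The tissue labels were set against markers. Of 108 listed genes of dermis, muscle, fat, vessels, mast cells, macrophages, nerve and blood, 88 were tested, and 73 of them were higher in Krt1-/- skin (83.0%, against 13.8% of all genes). The summed level of 18 collagen and matrix genes was 39680 to 40410 intensity units on the Krt1-/- skin arrays and 6757 to 8705 on the Krt1+/+ epidermis arrays, and that of 19 skeletal muscle genes 72100 to 127800 against 889 to 1355. The epidermis arrays carried low but measurable dermal signal. Of the 88 dermal genes tested, 28 were undetected on all 3 of them, and 47 were detected on all 3. Blood content differed among these arrays: the summed erythroid level was 2226, 8486 and 42500 on Krt1+/+ epidermis replicates 1, 2 and 3 and 50170, 36680 and 62370 in Krt1-/- skin.

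Of 211 listed epidermal genes 179 were tested. Of these 57 were called higher (31.8%, against 13.8% of all genes) and 23 lower (12.8%, against 15.1%), with a median difference of 0.10 against -0.07 over all genes. All lists here and their members were chosen with earlier results of these data known, so the called shares describe the listed genes only. Groups did not overlap for 60 of the 179 in the higher direction and for 27 in the lower one, where 18.5% and 23.3% of all genes were so separated. The share of lower genes lay below that over all genes by either count. Without Krt1-/- skin replicate 1 the counts were 48 higher and 21 lower. Set against the same 3 epidermis arrays, Krt1+/+ skin gave 3 higher and 103 lower of these 179 genes and a median of -0.72, in a comparison that called 19.8% of all genes higher and 22.0% lower. The 3 were Camp and Lcn2, both antimicrobial proteins also made by neutrophils, and Notch3, a receptor of the Notch pathway. Krt1-/- skin against Krt1+/+ skin gave 116 higher and 7 lower with a median of 1.17 (14.4% and 16.2% of all genes). The 7 lower were Krt1, Krt5, Krt15, Lamb3, Lce1m, Hes1 and Asah1, of which Krt1 is the targeted gene. These comparisons share arrays, so their values are placed side by side only.

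**Figure D1:**
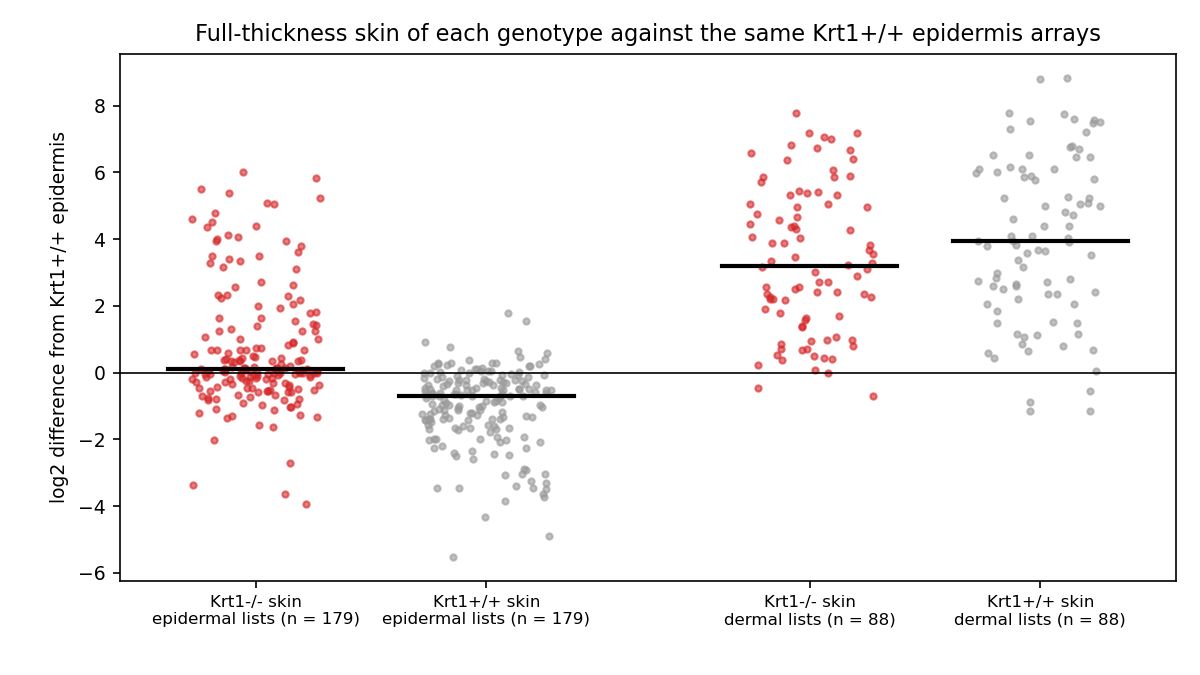
Difference in log2 level of full-thickness skin of each genotype from the same 3 Krt1+/+ epidermis arrays, 1 point per gene for 179 genes of the epidermal lists and 88 of the dermal lists, with black bars at the medians. Epidermal genes have a median of 0.10 in Krt1-/- skin and -0.72 in Krt1+/+ skin, while dermal genes lie at 3.20 and 3.95.

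The named genes below were also tested without each of the 6 arrays in turn. Of 131 that were called, 107 stayed called whichever array was left out, and the exceptions are stated beside their values. Called shares of every list are to be read with that choice of lists in mind and against 13.8% higher and 15.1% lower over all genes. For Krt1-/- skin against Krt1+/+ skin those shares were 14.4% and 16.2%, and for Krt1+/+ skin against the epidermis arrays 19.8% and 22.0%. Several lists below had 0 calls in one direction by limma. At an unadjusted p under 0.05 these counts stayed at 0 for all lists named here, except for 1 higher gene of early differentiation, 1 lower growth factor ligand and 2 higher hair follicle genes. The size of many differences depended on the background correction. Without it, the log2 differences of 41 of the 131 called genes shrank by over 1.5 times and those of 0 grew so, with a median ratio of 0.807, and the deposited normalized table gave 40. Among genes described below, Slpi (5.51 with it) then lay at log2 4.70, Il33 at 3.02, Tslp at 1.61 and Isg15 at 1.38, each with its call kept by limma. List medians that changed so are given beside the counts or in the closing section, except for those named next. The median fell from 1.40 to 0.49 for nerve and Schwann cell genes and from 0.37 to 0.15 for growth factor ligands. It went from -0.16 to -0.10 for the desmosome, 0.022 to 0.0014 for barrier lipids and 0.033 to 0.0096 for cholesterol genes.

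Of the 4 stress and wound keratins, 3 were higher and none lower, with a median of 2.97. Krt6b, a keratin of injured and hyperproliferative epidermis, read 12.92, 12.63 and 11.11 in Krt1-/- skin and 9.09, 6.70 and 7.31 in Krt1+/+ epidermis, a 22.9-fold difference (log2 4.52 ± 0.64, adjusted p = 0.000154). Krt6a, its close relative, read 9.16, 9.28 and 7.22 against 5.40, 4.48 and 4.94 (12.3-fold, adjusted p = 2.34e-05). Both genes have similar sequences, and a probe may not separate them. Krt16, which pairs with keratin 6, read 14, 13.80 and 12.94 against 11.83, 11.11 and 10.86, a 4.98-fold difference (log2 2.32 ± 0.31, adjusted p = 9.15e-05). No array of one group reached the range of the other for these 3 genes, and replicate 3 was the lowest of the Krt1-/- skin arrays for each. Krt17 did not pass (log2 0.03, 95% interval -0.36 to 0.41). Krt16 and Krt17 read above 50% of the brightest probe of an array, so their differences may be compressed.

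The small proline-rich proteins, flexible cross-bridges of the cornified envelope, held the largest rises of all epidermal genes. Of 14 tested, 12 were higher (85.7%) and none lower, with a median of 3.63. Without Krt1-/- skin replicate 1 the count was 12 of 13 tested. In the late cornified envelope 3 group, whose human members are associated with psoriasis and barrier repair, all 5 genes tested were higher (median 3.09). The late cornified envelope 1 group, expressed in normal cornifying epidermis, gave 0 higher and 1 lower of 12 by the same limma fit (median -0.21). Both families lie with involucrin, loricrin and S100 genes in the epidermal differentiation complex on mouse chromosome 3.

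The promoter windows of 3 small proline-rich genes among the 10 largest epidermal rises are printed because these genes rose together and each window holds the AP-1 motif, a site bound by Fos and Jun proteins that is known from many differentiation genes. The sequences are those of RefSeq on build GRCm38.p6, from 250 bases before the start of the gene to 50 after it, with matches to TGANTCA in capitals. The motif reads the same on both strands, and both were searched.
Sprr2f promoter: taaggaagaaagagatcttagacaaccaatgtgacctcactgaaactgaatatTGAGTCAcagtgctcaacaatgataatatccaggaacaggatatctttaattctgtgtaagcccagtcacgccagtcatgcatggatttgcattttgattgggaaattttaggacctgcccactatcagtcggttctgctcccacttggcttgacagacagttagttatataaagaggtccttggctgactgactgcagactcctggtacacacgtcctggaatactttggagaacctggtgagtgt
Sprr2e promoter: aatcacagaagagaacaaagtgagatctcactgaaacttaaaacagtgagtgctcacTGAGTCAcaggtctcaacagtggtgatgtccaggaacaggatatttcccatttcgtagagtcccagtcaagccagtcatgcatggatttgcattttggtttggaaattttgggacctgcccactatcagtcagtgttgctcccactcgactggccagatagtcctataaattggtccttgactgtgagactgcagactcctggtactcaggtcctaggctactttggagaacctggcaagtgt
Sprr2k promoter: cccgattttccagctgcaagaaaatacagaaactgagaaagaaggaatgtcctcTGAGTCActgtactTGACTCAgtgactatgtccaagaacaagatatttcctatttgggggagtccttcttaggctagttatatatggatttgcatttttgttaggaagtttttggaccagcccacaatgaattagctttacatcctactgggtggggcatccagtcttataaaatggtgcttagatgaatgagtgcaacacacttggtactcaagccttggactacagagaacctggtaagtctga
Their positions are chr3:92364937-92365236, plus strand for Sprr2f, chr3:92351893-92352192, plus strand for Sprr2e and chr3:92432332-92432631, plus strand for Sprr2k. The match starts at position -197 from the start of Sprr2f and at -193 from that of Sprr2e. Sprr2k holds 2 matches. Among the 10 largest epidermal rises, RefSeq promoters matched 8, and Slpi, Lce3f, Klk6, Epgn and Il33 had no match in this window. Of all 27025 genes with a RefSeq promoter, 8.97% held the motif, as did 6.85% of the tested genes, 22.3% of the tested epidermal-list genes (29 of 130) and 26.1% of those called higher (12 of 46).

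Sprr2f read 11.10, 10.79 and 9.92 in Krt1-/- skin and 5.20, 4.29 and 4.28 in Krt1+/+ epidermis, where it was detected on 1 array (64.5-fold, log2 6.01 ± 0.30, adjusted p = 5.32e-08). Sprr2e read 11.77, 11.35 and 10.82 against 5.65, 5.36 and 5.43 (56.9-fold, adjusted p = 2.81e-08). Sprr2k read 10.45, 8.87 and 8.37 against 4.20, 4.27 and 4.88, again with 1 epidermis array above background (27.5-fold, adjusted p = 1.43e-06). For each of the 3 genes the lowest Krt1-/- skin array lay more than 3 log2 units above the highest epidermis array. Sprr2g differed 41.8-fold and Sprr2h 13.8-fold, and Sprr1b 10.7-fold although it read above 50% of the brightest probe. Sprr2a1 and Sprr3 did not pass. Members of the Sprr2 family are similar enough that a probe may read more than one of them, so single folds within it are uncertain.

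Lce3f read 12.80, 11.94 and 11.97 in Krt1-/- skin and 7.68, 6.62 and 6.74 in Krt1+/+ epidermis (37.3-fold, log2 5.22 ± 0.30, adjusted p = 7.33e-08). Lce3e differed 15.4-fold, Lce3a 8.52-fold, Lce3c 6.53-fold and Lce3b 5.94-fold. The single lower gene of the other group was Lce1m, which read 12.58, 12.85 and 12.83 against 14.30, 14.41 and 14.46 (3.11-fold lower, log2 -1.63 ± 0.21, adjusted p = 7.61e-05). Its epidermis arrays reached 88% of the brightest probe. The difference between the Lce3 and Lce1 groups of genes was not tested. Across 55 tested genes of the complex 25 were higher (45.5%) and 2 lower (3.64%), and among them 5 of 11 S100 genes were higher. Not every gene of the complex is among these 55, and some are not reported here.

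**Figure D2:**
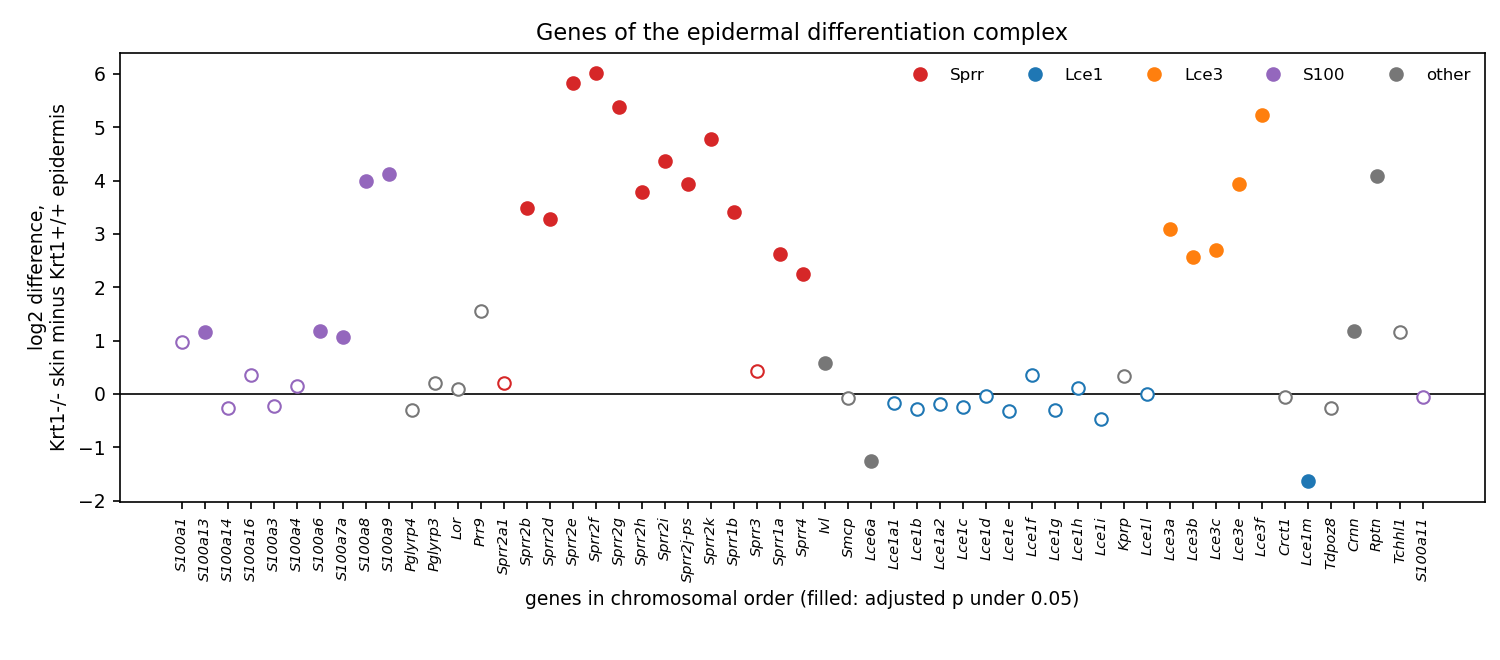
Difference in log2 level between Krt1-/- skin and Krt1+/+ epidermis for 55 genes of the epidermal differentiation complex, in chromosomal order, with filled points for adjusted p under 0.05 and colours for the families. The Sprr points (12 of 14 filled) and the Lce3 points (5 of 5) lie above 0, while the Lce1 points lie around a median of -0.21.

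The scaffold and cross-linking genes of the cornified envelope gave 5 higher and 2 lower of 15 (33.3% and 13.3%, against 13.8% and 15.1% of all genes, median 0.14). Rptn, encoding repetin, a fused S100-type matrix protein of the envelope, read 13.75, 13.34 and 13.54 in Krt1-/- skin and 10.39, 9.22 and 8.80 in Krt1+/+ epidermis (16.9-fold, log2 4.08 ± 0.30, adjusted p = 4.86e-07). Cnfn, encoding cornifelin, was 4.91-fold higher (adjusted p = 0.000271) and Tgm1, the main cross-linking transglutaminase, 2.74-fold (adjusted p = 0.0023). None of these 3 overlapped between groups. Cdsn, the adhesive protein of corneodesmosomes, was 1.85-fold higher (adjusted p = 0.0077). Ivl, encoding involucrin, was higher (log2 0.58, adjusted p = 0.0199), but its call ended without Krt1-/- skin replicate 1 (0.0547) or Krt1+/+ epidermis replicate 3 (0.0642) and under median centring (0.0819), and its other probe gave log2 0.39. Lor, encoding loricrin, did not pass (log2 0.10, 95% interval -0.27 to 0.47) and read at 78% of the brightest probe. Scel, encoding sciellin, was 2.47-fold lower (adjusted p = 0.00213). Ppl, encoding periplakin, was 1.65-fold lower, with a call that ended without Krt1-/- skin replicates 1 or 3 or Krt1+/+ epidermis replicates 2 or 3 (adjusted p 0.0797 to 0.142).

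Early differentiation genes of the suprabasal layers gave 0 higher and 2 lower of 12 by the limma fit (16.7% lower, against 15.1% of all genes, median -0.02). Besides Krt1 the lower gene was Dapl1, a gene of differentiating epithelia, which read 7.93, 6.94 and 7.72 in Krt1-/- skin and 10.82, 11.17 and 11.56 in Krt1+/+ epidermis (12.5-fold lower, log2 -3.65 ± 0.28, adjusted p = 5.64e-07). Its mean in Krt1+/+ skin was 7.73, near that of Krt1-/- skin (difference log2 -0.20). Krt10, the partner of keratin 1, read 14.16, 14.10 and 13.92 against 14.14, 13.51 and 14.14 and did not pass (log2 0.13, 95% interval -0.28 to 0.54, adjusted p = 0.654). The groups overlapped, at up to 67% of the brightest probe.

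Genes of the basal layer and its anchors lay lower, with 0 higher and 7 lower of 10 by limma and a median of -1.16. Krt1+/+ skin gave 0 higher and 6 lower of the 10 against the same epidermis arrays (median -0.76). For Krt1-/- skin against Krt1+/+ skin the counts were 1 higher and 3 lower (median -0.32). Krt15, a keratin of basal cells, read 9.29, 10.44 and 10.34 in Krt1-/- skin and 12.29, 12.85 and 13.07 in Krt1+/+ epidermis (6.57-fold lower, log2 -2.72 ± 0.30, adjusted p = 1.36e-05). Against Krt1+/+ skin it was 5.06-fold lower. Lamb3, a chain of laminin 332 beneath basal cells, read 8.63, 9.26 and 8.23 against 10.29, 10.90 and 11.02 (4.08-fold lower, adjusted p = 7.61e-05) and was 2.49-fold lower against Krt1+/+ skin. Col17a1, a collagen of the hemidesmosome, was 2.57-fold lower and Trp63, the master transcription factor of stratified epithelia, 2.16-fold lower (adjusted p = 0.000329 and 0.000724). Neither passed against Krt1+/+ skin (log2 -0.48 and -0.15). Krt5 was 2.30-fold lower (adjusted p = 0.0241), a call that ended without Krt1-/- skin replicates 1 or 3 or Krt1+/+ epidermis replicate 3 (0.0549, 0.0991 and 0.104). Krt14, its partner, did not pass (log2 0.06, 95% interval -0.33 to 0.44) at up to 58% of the brightest probe.

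**Figure D3:**
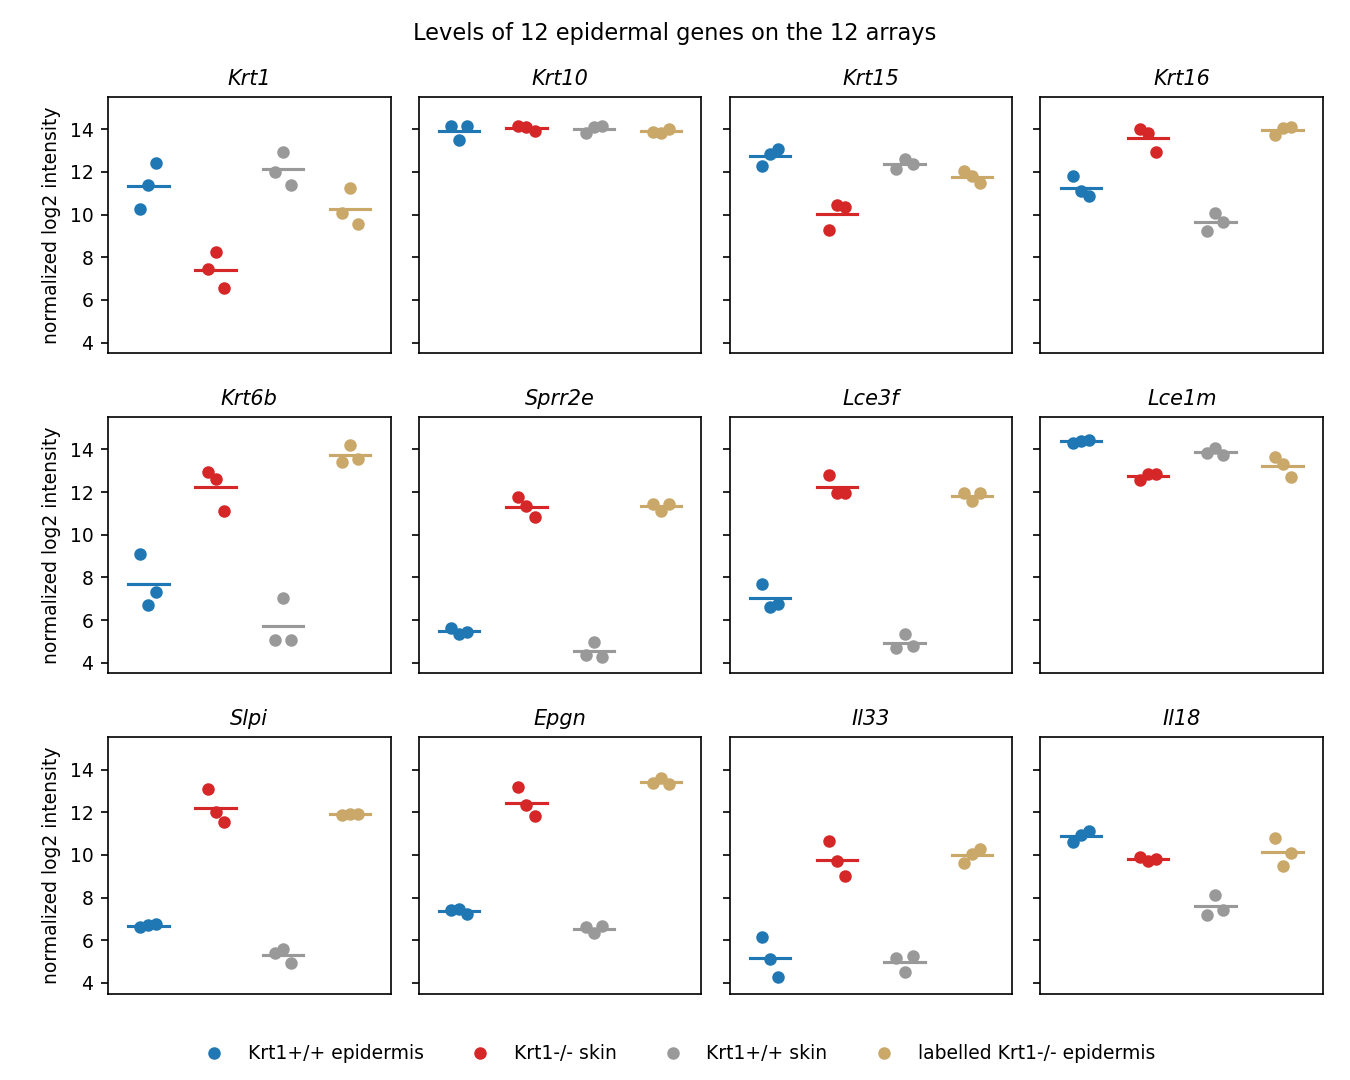
Normalized log2 intensity of 12 epidermal genes on the 12 arrays, 1 point per array and a bar at the mean of each group of 3. Krt6b, Krt16, Sprr2e, Lce3f, Slpi, Epgn and Il33 sit higher on every Krt1-/- skin array than on any Krt1+/+ epidermis array, Krt1, Krt15, Lce1m and Il18 sit lower, and Krt10 overlaps.

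Proteases that cut corneodesmosomes and process barrier proteins gave 5 higher and 0 lower of 13 (median 0.50, and 0.18 without background correction), and 3 higher and 1 lower without Krt1+/+ epidermis replicate 1. Klk6, a trypsin-like kallikrein, read 12.51, 11.71 and 11.55 in Krt1-/- skin and 7.73, 6.31 and 6.45 in Krt1+/+ epidermis (34.2-fold, log2 5.09 ± 0.39, adjusted p = 5.69e-07). Its mean in Krt1+/+ skin was 6.14, and no array of either wild-type group came near the knockout range. The membrane-linked serine protease Prss27 was 4.52-fold higher (adjusted p = 0.000697), with 1 of its other probes at log2 0.60 and not passing, and Klk9 3.43-fold (adjusted p = 0.00658). Klk7, the chymotrypsin-like desquamation protease, was 1.46-fold higher (adjusted p = 0.0155, 0.053 without Krt1+/+ epidermis replicate 1 and 0.14 under median centring). Klk11 was 1.61-fold higher, a call that ended without either of Krt1-/- skin replicates 1 and 2 or either of Krt1+/+ epidermis replicates 1 and 2 (adjusted p 0.0717 to 0.134).

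Among protease inhibitors 6 were higher and 3 lower of 20 (30% and 15%, against 13.8% and 15.1% of all genes). The median was 0.19, and 0.09 without background correction, and 3 were higher without Krt1-/- skin replicate 1. Slpi, an inhibitor of neutrophil elastase with antimicrobial activity, read 13.09, 12 and 11.52 in Krt1-/- skin and 6.61, 6.70 and 6.76 in Krt1+/+ epidermis (45.5-fold, log2 5.51 ± 0.31, adjusted p = 6.15e-08). Spink7, a Kazal-type inhibitor, read 10.23, 9.56 and 9.89 against 5.37, 5.65 and 5.50 (20.9-fold, adjusted p = 5.32e-08). Serpinb6c was 3.85-fold higher (adjusted p = 0.00081). The lowest Krt1-/- skin array of each of these 3 lay above every epidermis array. Wfdc21 moved the other way, at 8.30, 7.99 and 8.18 against 11.56, 11.35 and 11.63 (10.2-fold lower, log2 -3.36 ± 0.29, adjusted p = 1.58e-06), although it was 1.96-fold higher than in Krt1+/+ skin. Serpinb12 was 2.51-fold lower (adjusted p = 0.000999), with a second probe at log2 -0.99 that did not pass. Serpinb13, the other lower member, had no Krt1-/- skin array above background and lost its call without replicate 2 of that group (adjusted p = 0.0593).

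Antimicrobial proteins and S100 alarmins gave 8 higher and 0 lower of 11 (median 1.82, and 0.82 without background correction). S100a9, a subunit of calprotectin, read 12.56, 11.86 and 10.98 in Krt1-/- skin and 8.62, 7.25 and 7.14 in Krt1+/+ epidermis (17.5-fold, log2 4.13 ± 0.53, adjusted p = 6.45e-05). S100a8, its partner, read 11.99, 11.60 and 10.08 against 8.31, 6.75 and 6.63 (15.9-fold, adjusted p = 7.87e-05). Lcn2, an iron-sequestering lipocalin, was undetected on all 3 epidermis arrays and at least 7.17-fold higher in Krt1-/- skin (adjusted p = 6.36e-05). The beta-defensin Defb4 was 11.3-fold higher (adjusted p = 0.000293), detected on 1 epidermis array, and Defb14 was higher by log2 2.32 (adjusted p = 0.00143). S100a7a was called at 2.10-fold, but its call ended without any 1 of 4 arrays, namely Krt1-/- skin replicates 1 or 2 and Krt1+/+ epidermis replicates 2 or 3 (adjusted p 0.11 to 0.158).

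Neutrophils also make S100a8, S100a9, Lcn2 and Camp, so their markers are given beside these values. Of 9 neutrophil markers 4 passed the detection filter and were tested, and 2 were higher. The median of the 4 was 0.94, or 0.77 with undetected genes at their bound and 0.32 without background correction. With no detection filter 3 of the 9 were higher, with a median of 0.25. Retnlg was at least 4.51-fold higher (adjusted p = 0.000837), undetected on every epidermis array, and Ltf, encoding lactoferrin, 2.46-fold (adjusted p = 0.000847). The summed level of the 4 was 171.8 to 273 intensity units in Krt1-/- skin, 82.4 to 84.5 in Krt1+/+ epidermis and 87.7 to 129.3 in Krt1+/+ skin. On the Krt1+/+ epidermis arrays 3 of these 4 genes were undetected throughout and 0 were detected on all 3 arrays, so that sum lies near background. Those 3 genes met the detection filter on other arrays only. The antimicrobial list summed to 6468 to 17200 in Krt1-/- skin, 3244 to 3672 in Krt1+/+ epidermis and 1361 to 2293 in Krt1+/+ skin. The part of neutrophils in these levels was not tested.

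Of the interleukin 1 family with Il33 and Tslp, 3 of 9 were higher and 1 lower (33.3% and 11.1%, against 13.8% and 15.1% of all genes, median 0.40). Il33, an alarmin stored in the nucleus of barrier cells, read 10.63, 9.71 and 8.99 in Krt1-/- skin and 6.16, 5.10 and 4.29 in Krt1+/+ epidermis, where 2 arrays detected it (24.2-fold, log2 4.59 ± 0.44, adjusted p = 4.54e-06). Tslp, an epithelial cytokine that primes dendritic cells for type 2 responses, read 8.85, 6.77 and 7.35 and was undetected on every epidermis array, which makes it at least 7.87-fold higher (adjusted p = 0.000146). Il1b was 2.37-fold higher, but its call ended without any 1 of 5 arrays (all but Krt1-/- skin replicate 3, adjusted p 0.058 to 0.126). Il18 read 9.88, 9.70 and 9.81 against 10.62, 10.94 and 11.13 and was 2.14-fold lower (log2 -1.10 ± 0.31, adjusted p = 0.0158, and 0.0583 without Krt1+/+ epidermis replicate 3). The same gene was 4.63-fold higher than in Krt1+/+ skin (adjusted p = 0.000179), whose own level lay at log2 -3.31 from the epidermis arrays. Il33 stood at 27.7-fold in that comparison, and Tslp was undetected on every Krt1+/+ skin array.

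Among 5 ligands of the epidermal growth factor receptor 2 were higher and 0 lower. Epgn, encoding epigen, read 13.17, 12.36 and 11.80 in Krt1-/- skin and 7.42, 7.48 and 7.24 in Krt1+/+ epidermis (33.4-fold, log2 5.06 ± 0.27, adjusted p = 5.32e-08). Hbegf, a heparin-binding ligand of wound edges, read 8.58, 7.06 and 6.16 against 4.93, 5.26 and 5.42 (4.18-fold, adjusted p = 0.00368). The groups did not overlap for either gene.

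The remaining epidermal lists cover lipids, junctions and transcription factors, with called shares to be read against 13.8% higher and 15.1% lower over all genes. Of 18 barrier lipid genes 4 were higher and 1 lower: Degs2, which makes phytoceramides, was 4.02-fold higher (adjusted p = 0.000151), Sult2b1, the cholesterol sulfotransferase, 2.46-fold on the probe read (adjusted p = 0.0013) and Cyp4f39 2.38-fold (adjusted p = 0.0035). The other probes of Sult2b1 gave log2 1.22, which passed, and 0.45, which did not. Ugcg, a glucosylceramide synthase called higher at 1.61-fold, lost its call without Krt1-/- skin replicate 1 or Krt1+/+ epidermis replicates 1 or 3 (adjusted p 0.0785 to 0.141). The ceramidase Acer1, called lower at 1.47-fold, kept it only without Krt1+/+ epidermis replicate 1 (adjusted p 0.0606 to 0.105 without each other array). Of 9 desmosome genes Jup, encoding plakoglobin, was 3.12-fold higher (adjusted p = 0.001), and Perp was 1.77-fold lower with a call that ended without Krt1-/- skin replicate 2 or Krt1+/+ epidermis replicates 2 or 3 (adjusted p 0.0882 to 0.109). Of 9 junction genes Gjb2, encoding connexin 26, was 2.62-fold higher on the probe read (adjusted p = 0.000384; 1 of 2 other probes did not pass at log2 1.05), while the claudin Cldn1 was 1.89-fold and occludin, Ocln, 2.02-fold lower (adjusted p = 0.00437 and 0.00321). Gjb6, encoding connexin 30, was 1.76-fold higher, a call that ended without Krt1-/- skin replicates 1 or 2 or Krt1+/+ epidermis replicates 1 or 3 (adjusted p 0.0504 to 0.11). Of 13 transcription factors Hopx, which is expressed in differentiating keratinocytes, was 2.90-fold higher (adjusted p = 0.00807). Gata3 and Grhl2, regulators of the barrier programme, were 2.40-fold and 1.92-fold lower (adjusted p = 0.0027 and 0.00296). Hes1, a Notch target, was called lower at 1.74-fold, and its call ended without Krt1-/- skin replicates 1 or 3 or Krt1+/+ epidermis replicates 2 or 3 (adjusted p 0.092 to 0.169).

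**Figure D4:**
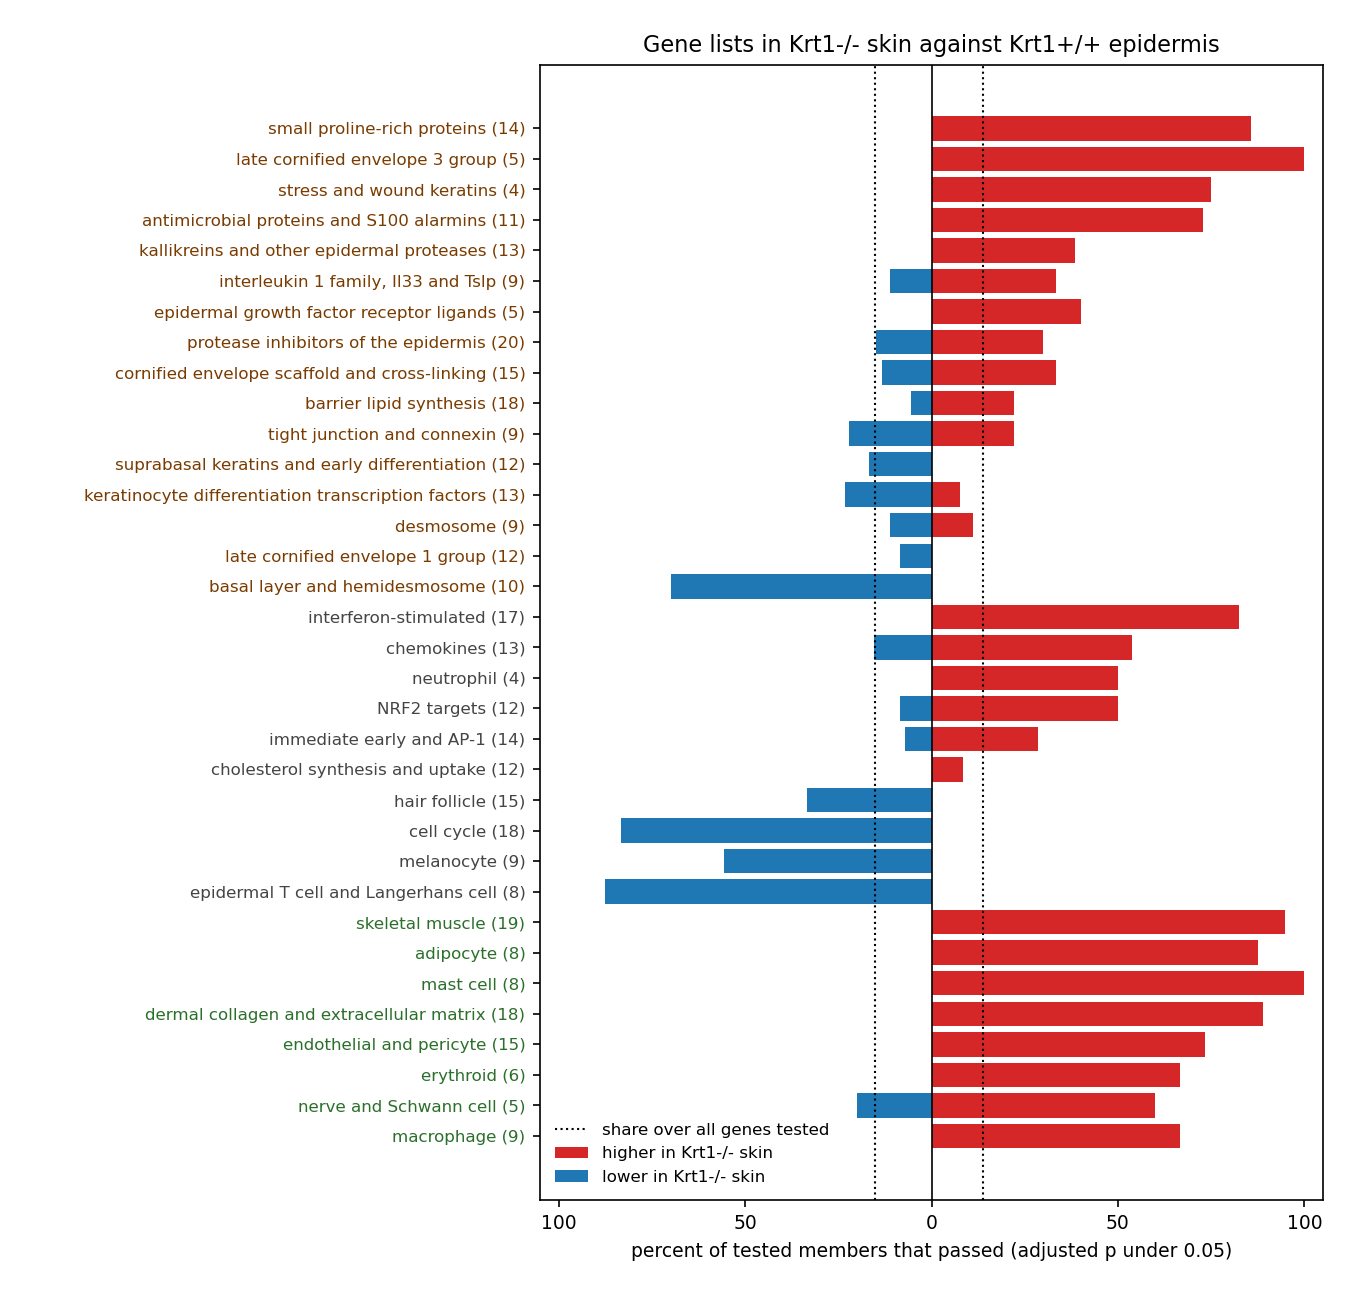
Percent of tested members of each gene list called higher (right) or lower (left) in Krt1-/- skin than in Krt1+/+ epidermis, with the number tested in brackets and dotted lines at the shares over all genes, 13.8% and 15.1%. Label colours separate epidermal lists (brown), lists of either tissue (grey) and dermal lists (green).

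Interferon-stimulated genes, which can be made in either tissue, gave 14 higher and 0 lower of 17 with a median of 1.48, or 1.33 with undetected genes at their bound. Without background correction 13 were higher and the median was 0.74. Krt1+/+ skin gave 5 higher of the same 17 against the epidermis arrays, where 19.8% of all genes were higher. Krt1-/- skin against Krt1+/+ skin gave 8, where 14.4% of all genes were higher. The promoter of Isg15, an antiviral ubiquitin-like modifier, is shown because it holds overlapping copies of the interferon-stimulated response element core, which is GAAA, any 2 bases and GAAA again. It was searched on both strands and is printed in capitals. It lies at chr4:156200769-156201068, minus strand, on GRCm38.p6 in RefSeq.
Isg15 promoter: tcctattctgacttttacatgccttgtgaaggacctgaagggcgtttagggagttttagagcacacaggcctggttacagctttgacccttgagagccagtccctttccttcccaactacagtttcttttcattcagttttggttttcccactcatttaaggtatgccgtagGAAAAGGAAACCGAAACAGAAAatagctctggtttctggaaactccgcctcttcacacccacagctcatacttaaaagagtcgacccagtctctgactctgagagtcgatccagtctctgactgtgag
Of the 14 interferon-stimulated genes matched to a RefSeq promoter, 8 held the core (57.1%), against 3.74% of the tested genes and 3.99% of all 27025. Among those called higher the share was 54.5% (6 of 11). Of the interferon genes described below, Oasl2, with the largest fold, held 0 copies in its window and Oas1g held 2. A match in this window is a description of its letters.

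Isg15 read 8.24, 6.67 and 7.68 in Krt1-/- skin and 5.29, 4.20 and 4.59 in Krt1+/+ epidermis, where it was detected on 1 array (7.15-fold, log2 2.84 ± 0.44, adjusted p = 0.000335). Oasl2, of the oligoadenylate synthetase family that senses viral RNA, read 10.36, 9.66 and 10.37 against 6.24, 5.73 and 6.81 (14.6-fold, adjusted p = 5.05e-05), and a second probe gave log2 1.01. Usp18, which removes the Isg15 tag, was 6.98-fold higher (adjusted p = 0.000141), although its second probe did not pass at log2 0.20. Oas1g was 4.60-fold higher (adjusted p = 0.000564) with a second probe at log2 0.77. Replicate 2 was the lowest Krt1-/- skin array for all 4 genes, and the groups did not overlap for any of them.

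Among immediate early genes 4 were higher and 1 lower of 14 (28.6% and 7.14%, against 13.8% and 15.1% of all genes). The median was 0.20, and 0.09 without background correction. Ier3, an early response gene that limits apoptosis, read 11.14, 10.68 and 9.81 against 8.28, 8.56 and 8.44 (4.34-fold, adjusted p = 0.000146). Zfp36, which destabilises cytokine messenger RNA, was 2.92-fold higher (adjusted p = 0.0016) and the AP-1 subunit Junb 2.36-fold (adjusted p = 0.00684). Dusp1 was called at 1.89-fold and its call ended without any 1 of 3 arrays, namely Krt1-/- skin replicates 1 or 2 or Krt1+/+ epidermis replicate 1 (adjusted p 0.0504 to 0.0797). Krt1+/+ skin gave 1 higher and 2 lower of these 14 genes against the same epidermis arrays (median 0.03). For Krt1-/- skin against Krt1+/+ skin the counts were 5 higher and 1 lower (median 0.49). Targets of NRF2, the regulator of the oxidative stress response, gave 6 higher and 1 lower of 12 (median 0.61, and 0.30 without background correction). Gsta4, a glutathione transferase, was 4.24-fold higher (adjusted p = 9.84e-05) and Srxn1, encoding sulfiredoxin, 4.20-fold (adjusted p = 0.000579). The lower one was Gclc, of glutathione synthesis, with a call that ended without Krt1-/- skin replicate 1 or Krt1+/+ epidermis replicates 1 or 2 (adjusted p 0.0869 to 0.11). Krt1+/+ skin gave 3 higher and 5 lower of these 12 targets against the same epidermis arrays (median -0.22). For Krt1-/- skin against Krt1+/+ skin the counts were 5 higher and 1 lower (median 0.47).

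Chemokines gave 7 higher and 2 lower of 13, and 4 higher without any 1 of Krt1-/- skin replicate 1 and Krt1+/+ epidermis replicates 2 and 3. Without background correction, and in the deposited normalized table, 2 were higher, with medians of 0.33 and 0.34. Of these 13 genes 8 were undetected on all 3 epidermis arrays, and the median of 0.98 fell to 0.58 with such genes at their bound. Cxcl14, an epidermal chemokine, read 8.68, 9.75 and 8.65 in Krt1-/- skin and 10.79, 11.03 and 11.60 in Krt1+/+ epidermis (4.33-fold lower, adjusted p = 8.09e-05). Ccl27a, the keratinocyte chemokine that draws skin-homing T cells, read 8.15, 9.25 and 9.25 against 11.22, 10.71 and 10.66 (3.95-fold lower, adjusted p = 9.3e-05). Both were also lower than in Krt1+/+ skin, by 2.77-fold and 1.91-fold. Cxcl12, a chemokine of fibroblasts and vessels, was at least 5.10-fold higher (adjusted p = 5.5e-06), and Krt1+/+ skin lay at log2 3.18 above the epidermis arrays too. Its other 2 probes gave log2 0.39 and 0.77.

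Cell cycle genes gave 0 higher and 15 lower of 18 by limma, with a median of -1.01. Top2a, the topoisomerase of dividing cells, read 8.10, 8.31 and 7.36 in Krt1-/- skin and 10.02, 9.19 and 9.18 in Krt1+/+ epidermis (2.91-fold lower, adjusted p = 0.00158). Mcm3, of the replicative helicase, was 2.50-fold lower (adjusted p = 0.00129) and Aurkb, a mitotic kinase, 2.04-fold (adjusted p = 0.00233). Mcm7 was 2.40-fold lower on the probe read, and its second probe did not pass at log2 -0.38. Against the same epidermis arrays Krt1+/+ skin gave 7 lower of the 18 (median -0.62), and Krt1-/- skin against Krt1+/+ skin 5 lower and 1 higher (median -0.39). Cholesterol genes gave 1 higher of 12, Lss, at 1.98-fold on the probe read (adjusted p = 0.00775), and its second probe did not pass at log2 0.09.

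Markers of other cells of the epidermis were lower. The list of epidermal T cells and Langerhans cells gave 0 higher and 7 lower of 8 by limma, with a median of -1.82, or -1.72 at the bounds and -0.82 without background correction. Cd3e, a chain of the T cell receptor complex, was at least 3.39-fold lower (adjusted p = 1.42e-05) and Cd3d at least 3.18-fold (adjusted p = 2e-05), both undetected on all Krt1-/- skin arrays. Cd3g was 4.99-fold lower, with 1 knockout array above background, and Cd74, the invariant chain of antigen presentation, 3.29-fold lower (adjusted p = 9.63e-05 and 0.000477). Krt1+/+ skin gave 0 higher and 6 lower of the 8 genes against the same epidermis arrays (median -1.11). For Krt1-/- skin against Krt1+/+ skin the counts were 0 higher and 4 lower (median -0.65). The summed level of the 8 genes was 282 to 324 in Krt1-/- skin, 772 to 1781 in Krt1+/+ epidermis and 542 to 861 in Krt1+/+ skin. Skint9 and Skint6, of the keratinocyte family whose founding member selects epidermal T cells, were among the 10 largest falls of all genes. Skint9 read 6.04, 8.13 and 7.89 against 11.20, 11.84 and 12.20 (21.1-fold lower, adjusted p = 6.45e-05), and Skint6 was 7.79-fold lower (adjusted p = 0.000106). Skint9 was also 5.36-fold lower than in Krt1+/+ skin, whereas Skint6 did not pass there (log2 -0.12).

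Melanocyte genes gave 0 higher and 5 lower of 9 by limma, with a median of -1.05, and -0.44 without background correction. Sox10, the melanocyte and glial transcription factor, was 2.54-fold lower (adjusted p = 0.000469), Tyr, the pigment enzyme tyrosinase, at least 2.15-fold (adjusted p = 0.00152), and Pmel 2.37-fold (adjusted p = 0.0112). Dct was 2.35-fold lower (adjusted p = 0.0129, and 0.0561 without Krt1+/+ epidermis replicate 1), and Slc45a2 lost its call without Krt1-/- skin replicate 1 or Krt1+/+ epidermis replicates 1 or 2 (adjusted p 0.0552 to 0.0642). Against Krt1+/+ skin 1 of the 9 was lower, Kit, and 1 higher, Tyrp1, while 6 were lower in Krt1+/+ skin than in Krt1+/+ epidermis.

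Hair follicle genes gave 0 higher and 5 lower of 15 by limma, with a median of -0.0029 (0.0148 without background correction), and 3 were higher without Krt1+/+ epidermis replicate 1. The members ran both ways, from log2 -2.58 to 2.97, and 10 did not pass. At an unadjusted p under 0.05 in limma 2 were higher. Tchhl1, at log2 1.16, did not pass (adjusted p = 0.0553). The genes named next are the lower ones. Shh, the signal of the growing follicle, read 6.57, 7.41 and 6.79 in Krt1-/- skin and 9.87, 9.25 and 9.37 in Krt1+/+ epidermis (5.96-fold lower, log2 -2.58 ± 0.25, adjusted p = 4.4e-06). Its receptor and target Ptch1 was 3.66-fold lower on the probe read (adjusted p = 4.97e-05), with a second probe at log2 -0.26 that did not pass. Sox9 and Lhx2, transcription factors of follicle progenitors, were 3.25-fold and 4.52-fold lower (adjusted p = 3.35e-05 and 0.000793). Lef1 lost its call without Krt1-/- skin replicate 1 or Krt1+/+ epidermis replicate 3 (adjusted p = 0.0841 and 0.0837). Against Krt1+/+ skin Shh was 3.46-fold lower and Ptch1 3.86-fold. The summed level of the list was 3096, 13130 and 8719 on the Krt1-/- skin arrays, so they differed among themselves. Other large falls were Bbox1, the last enzyme of carnitine synthesis (11.8-fold, adjusted p = 1.33e-05), Sp5, a Wnt-responsive transcription factor (8.91-fold, adjusted p = 2.76e-07), and Minar2 (6.62-fold, adjusted p = 1.43e-06).

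The largest rises over all genes were those of muscle, mast cell and dermal genes, which were also high in Krt1+/+ skin. Tnnc2, a troponin of fast muscle, read 12.17, 12.88 and 11.93 in Krt1-/- skin and 4.96, 4.36 and 4.32 in Krt1+/+ epidermis (log2 7.78 ± 0.53, adjusted p = 2.82e-07), and Krt1+/+ skin differed from the same epidermis arrays by log2 8.78. Acta1, Myh8, Atp2a1, Actc1 and Tnnt3 of the contractile apparatus lay at log2 6.72 to 7.19, of which Acta1 and Myh8 reached over 50% of the brightest probe, and Sln, a regulator of the calcium pump, was at least 109-fold higher. Col1a1, the main collagen of dermis, read 11.74, 11.90 and 11.83 against 5.24, 4.67 and 5.13, a log2 difference of 6.81. It was 4.05-fold lower than in Krt1+/+ skin (log2 -2.02), while Col3a1, at log2 5.90 above the epidermis arrays on the probe read and 1.22 on the other, did not pass against that group (log2 0.84). Of the other dermal lists the mast cell genes were all higher, 8 of 8, with Cpa3 and Hdc at log2 7.06 and 6.37. The fat marker Adipoq lay at log2 6.68, the endothelial genes Cdh5 and Emcn were at least 6.08-fold and 11.4-fold higher, the macrophage receptor Cd163 at least 18-fold and the nerve growth cone protein Gap43 at least 6.63-fold. Dlk1, a gene of preadipocytes, lay at log2 6.77.

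Across all 88 dermal genes the median difference was 3.20, or 2.92 with undetected genes at their bound, and Krt1+/+ skin lay at a median of 3.95 from the same epidermis arrays. Against Krt1+/+ skin 4 of them were higher and 31 lower in Krt1-/- skin (median -0.67), the 4 being Postn, Cd163, Mbp and Mb. The single dermal-list gene lower than in epidermis was Egr2, listed as a Schwann cell gene and also an immediate early gene, whose call ended without Krt1-/- skin replicates 1 or 3 or Krt1+/+ epidermis replicates 2 or 3 (adjusted p 0.0629 to 0.121). In the erythroid list 4 of 6 genes were called higher, but no gene separated the groups, and leaving out 1 array gave 0 to 5 calls. Hbb-bs, an adult beta globin, read 14.30, 13.93 and 14.63 against 9.83, 11.73 and 14.01 (5.39-fold, adjusted p = 0.0171), and its call ended without Krt1-/- skin replicate 3 or Krt1+/+ epidermis replicate 2 (0.0525 and 0.051). Hbb-bs, Hba-a1 and Hbb-bt reached 81%, 57% and 56% of the brightest probe, so their differences may be compressed. Hba-a1 lost its call without the same 2 arrays (0.0648 and 0.0552), and Hbb-bt and Alas2 also without Krt1-/- skin replicate 1 or Krt1+/+ epidermis replicate 1 (0.0577 to 0.112).

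**Figure D5:**
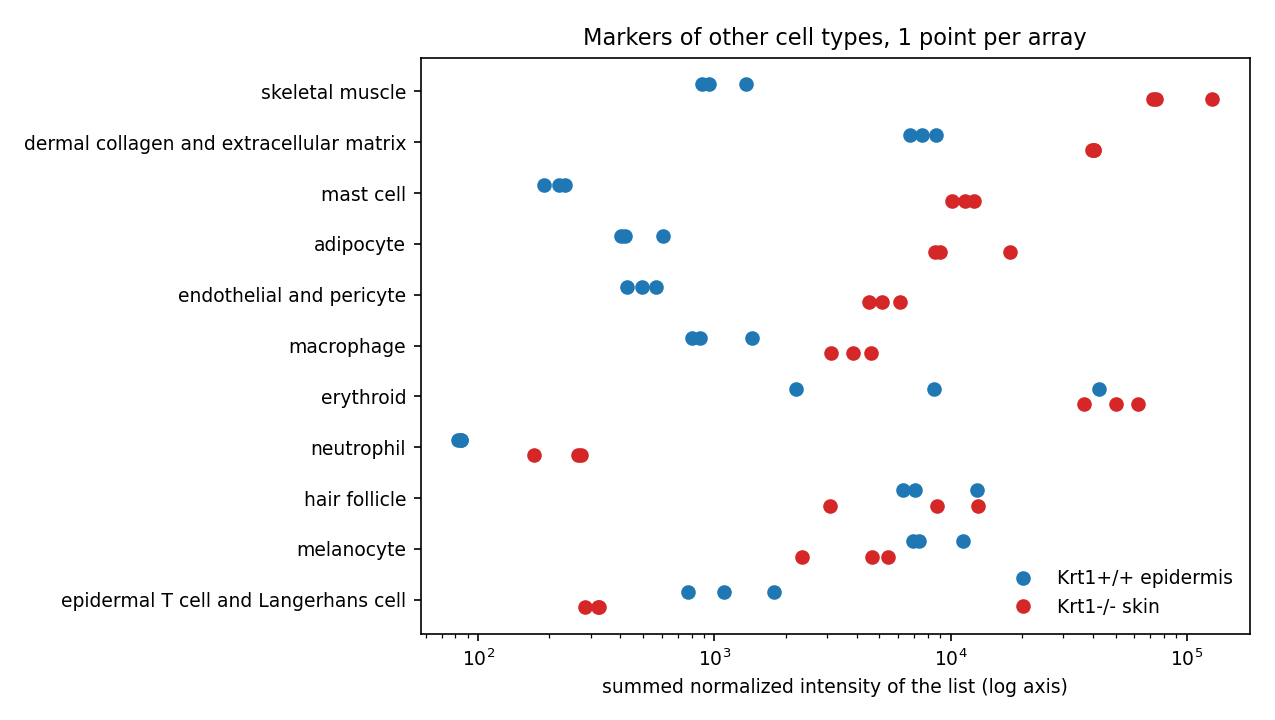
Summed normalized intensity of marker lists of other cell types on the 6 arrays, on a log axis, 1 point per array. Muscle and collagen lists lie far higher in Krt1-/- skin (72100 to 127800 and 39680 to 40410), the T cell and Langerhans cell list lies lower (282 to 324), and the erythroid list spans 2226 to 42500 among the Krt1+/+ epidermis arrays.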

How the data were processed

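The authors deposited a non-normalized table of linear bead intensity per probe on 12 arrays, and a detection p-value per probe and array beside it, per the file headers. They also deposited normalized intensity values, whose columns share the same quartiles. The sources used here name neither their method nor the scanner software. Per the labels, RNA was amplified and labelled with the Ambion MessageAmp kit.

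In R 4.3.3, limma 3.58.1 (neqc) estimated the background from detection p-values, added an offset of 16, quantile normalized the 12 arrays and took log2. Probes with a detection p under 0.05 on at least 3 arrays were kept, 21712 of 45281. Of these 18687 had 1 gene in the platform annotation, updated through gene IDs, and each of 12099 genes was read by its probe with the highest mean. The probe with the highest mean can favour a bright or saturated probe, and quantile normalization equalises overall shifts between tissues. One linear model with 4 groups of 3 arrays and empirical Bayes moderation (8 residual and 5.39 prior degrees of freedom) gave every test, adjusted with Benjamini-Hochberg over all genes. A gene undetected on every array of one group has only a bound there, taken from the lowest detected signal of each array. No pair of arrays held identical values.

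Named genes were 15 fixed genes, the 10 largest rises and falls that passed without overlap over all genes and over epidermal lists, and up to 4 genes per list with the smallest unadjusted p. Members and lists were chosen with earlier results of these data known, and members of small counts named beyond this rule were chosen after their values were seen. Between Krt1-/- skin and Krt1+/+ epidermis, same-numbered deviations from the group means correlated at 0.0186, -0.0109 and 0.0147. These groups differ in genotype, so this cannot show arrays of one animal, and other pairs of groups were not checked. Alternatives were another background, median centring, the 6 arrays alone, the deposited normalized table, detection filters, the mean of probes, another variance model, a minimum fold, a replicate block and each array left out.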

Additional observations from a re-analysis of the deposited data

How the results depend on the processing

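Requiring at least 1.5-fold in the limma test gave 754 genes higher and 217 lower, 8 epidermal-list genes lower and 0 dermal-list genes lower. Median centring gave 860 genes lower and 0 dermal-list genes lower. All other alternatives to the processing left these counts within 1.5 times of 1675 higher, 1829 lower, 57 and 23 for the epidermal lists and 73 and 1 for the dermal lists. Leaving out 1 array gave 1376 to 1542 higher and 1326 to 1529 lower, 48 to 57 and 16 to 26 for the epidermal lists, and 66 to 75 and 0 to 1 for the dermal lists. Direction reversed only for genes that did not pass. With median centring these were Krt14 (-0.10), Krt10 (-0.0156), Krt17 (-0.10) and Lor (-0.0388). Leaving out 1 array gave -0.115 to 0.157 for Krt14, -0.0796 to 0.239 for Krt10, -0.0874 to 0.138 for Krt17 and -0.00202 to 0.158 for Lor, all log2 differences. The causes were not tested. Of 131 named calls, the 1.5-fold minimum ended 44, median centring 13, the fit on the 6 arrays alone 14 and every other processing alternative 9 or fewer. Omitting the background correction shrank 41 of their log2 differences by over 1.5 times, use of the deposited normalized values did so for 40 and the mean of probes for 9. Without the correction, medians also fell from 5.71 to 3.52 for muscle, 4.22 to 2.25 for fat, 2.42 to 0.97 for vessels and 4.06 to 2.11 for mast cells. The 1.5-fold minimum left 2 chemokines higher (7 before), 6 interferon-stimulated genes higher (14) and 1 cell cycle gene lower (15). With the replicate number as a block, 1653 genes were higher and 1751 lower, and the calls of Klk11 and Ugcg ended (adjusted p = 0.05003 and 0.05391). Same-numbered arrays of Krt1-/- skin and Krt1+/+ epidermis showed no shared deviations, so the block says nothing of a weaker effect. Signal over background limits genes undetected in 1 group, whose folds are bounds, and probes near the top of the range.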
